A study of Mus musculus with 9 samples.

Results

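Immunoglobulin variable (V) segments were examined in lungs of mice that carried 4T1 tumours, a mouse mammary carcinoma line. The segments were all rows of the deposited gene table whose symbol begins with Ighv, Igkv or Iglv, which gave 350 of 45706 rows. Of these, 185 were heavy chain segments (Ighv, chromosome 12), 162 were kappa light chain segments (Igkv, chromosome 6) and 3 were lambda light chain segments (Iglv, chromosome 16). All mice were female BALB/c, aged 4 to 6 weeks, with the tumour in the right flank. The first group received nanocapsules of anti-PD1, the second received anti-PD1 as such, an antibody against the T cell checkpoint receptor PD-1, and the third received phosphate-buffered saline (PBS). Dosing fell on day 7 and day 14 after engraftment, and lungs were taken on day 21. A dose of 150 µg per mouse is given beside the nanocapsules, and it is not clear if the free antibody was dosed alike. With 3 lungs in each group, 9 polyA RNA libraries entered every comparison. The labels number the lungs without naming the animals, so all p-values rest on the spread among these lungs, which may be technical.

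An antibody chain is assembled in developing B cells when the RAG1 and RAG2 recombinase joins 1 V segment to a J segment, with a D segment between them in the heavy chain. Each B cell clone therefore transcribes its own V segments at high level, spliced to a constant region, and a clone that expands or turns into plasma cells raises the level of its own segments in tissue RNA. In mice most light chains are kappa.

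The 3′ end of a germline V segment is the stretch that a rearranged transcript keeps up to the join. It holds a conserved cysteine codon, in capitals here, that closes the last framework region, and the bases after it begin the complementarity-determining region CDR3. The last 90 bases of the annotated segment are shown 5′ to 3′ on the coding strand, from GENCODE M21 transcripts on GRCm38. The highest heavy segment and the heavy segment with the smallest p against PBS come first.
Ighv2-9: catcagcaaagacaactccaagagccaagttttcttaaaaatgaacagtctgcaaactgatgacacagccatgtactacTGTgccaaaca
Ighv3-2: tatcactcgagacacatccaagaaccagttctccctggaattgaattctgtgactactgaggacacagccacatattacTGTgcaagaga
These stretches lie at chr12:113879096-113879185 and chr12:114033803-114033892, both on the minus strand. The annotation calls Ighv2-9 a V gene and Ighv3-2 a V pseudogene.

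The kappa segments shown are the pair with the highest mean level and a pair from the Igkv4 family that were each high in 1 lung.
Igkv1-117: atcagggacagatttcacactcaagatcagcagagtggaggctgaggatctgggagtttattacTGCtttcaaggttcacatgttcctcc
Igkv1-110: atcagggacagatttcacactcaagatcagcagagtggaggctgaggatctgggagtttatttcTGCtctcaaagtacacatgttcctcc
Igkv4-91: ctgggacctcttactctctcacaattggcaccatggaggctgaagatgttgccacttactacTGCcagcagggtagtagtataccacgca
Igkv4-55: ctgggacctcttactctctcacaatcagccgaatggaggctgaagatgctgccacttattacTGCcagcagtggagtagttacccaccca
They lie at chr6:68121738-68121827 and chr6:68271178-68271267 on the plus strand, and at chr6:68768555-68768644 and chr6:69607275-69607364 on the minus strand. Over the last exon, Igkv1-117 and Igkv1-110 shared 303 of 313 bases (96.8%), and Igkv4-91 and Igkv4-55 were 84.5% identical.

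The lambda locus has few V segments, and the main pair are near copies of each other.
Iglv1: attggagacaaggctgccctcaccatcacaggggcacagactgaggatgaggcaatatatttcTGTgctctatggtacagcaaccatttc
Iglv2: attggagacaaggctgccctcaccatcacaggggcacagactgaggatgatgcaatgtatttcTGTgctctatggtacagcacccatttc
They lie at chr16:19085017-19085106 and chr16:19260401-19260490 on the minus strand, and 296 of 305 bases of their last exons were identical (97.0%). Such likeness was common in the family. The median segment shared 38.6% of its 31-base words with another gene, and 125 of the 350 segments shared 50% or more. How the authors' counting split such reads is not given in the sources used here, so the level of any single segment is uncertain, the more so in near copies. Segment names and letters are those of the reference genome, whereas the mice were BALB/c, whose V segments differ from it in places.

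Values are TPM, a share of the library that is corrected for length, so levels can be set side by side between segments. The depth of the libraries is unknown, because TPM carries no read count. Between 12194 and 13407 genes reached 1 TPM in a lung. All 9 libraries held lung epithelial RNA, with Sftpc, the surfactant protein of alveolar type II cells, between 343 and 3410 TPM. Some lungs stood apart from their group in genes of lymphocytes. Nanocapsule lung 2, anti-PD1 lung 3 and PBS lung 3 were the highest of their groups in Rag1, at 4.72, 28.3 and 8.62 TPM, against 0.34 to 3.46 TPM in the other lungs. The same lungs held 12.1, 46.8 and 14.1 TPM of Dntt, the template-free DNA polymerase of immature lymphocytes, against 0.54 to 4.49 TPM elsewhere. In anti-PD1 lung 3 and PBS lung 3 this went with Cd8b1, a T cell co-receptor chain, at 90.9 and 51.9 TPM, against 13.5 to 38.5 TPM in the other lungs. The part of these lungs in the results was not tested beyond leaving them out.

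Of the 350 segments, 223 were above 0 TPM in at least 1 lung and 127 were listed at 0 in all of them. Only 101 segments were above 0 in every lung, 33 of Ighv, 65 of Igkv and 3 of Iglv. Detection went with the annotated status. Among 216 segments annotated as V genes 195 were above 0 in some lung, against 27 of 130 V pseudogenes. In Ighv 109 of 185 segments were above 0 in some lung, and in Igkv 111 of 162. A segment entered the tests if it reached 1 TPM in at least 3 lungs, which left 69 Ighv, 93 Igkv and 3 Iglv segments, 165 in all. A segment that passed this filter through 1 group alone had to differ, so the tested segments do not stand for all 350.

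Heavy chain segments summed to less TPM in nanocapsule lungs than in either other group. The Ighv sum was 318, 222 and 309 TPM in nanocapsule lungs 1 to 3, 610, 330 and 575 TPM in anti-PD1 lungs, and 800, 408 and 768 TPM in PBS lungs. All 3 nanocapsule lungs lay below all lungs of the other groups, while anti-PD1 and PBS lungs overlapped. The group means were 283 ± 52.9, 505 ± 152 and 659 ± 217 TPM (SD, n = 3 each) in nanocapsule, anti-PD1 and PBS lungs. On the log2(sum + 1) scale the difference was -1.17 (SE 0.37) for nanocapsule minus PBS, -0.80 (SE 0.37) for nanocapsule minus anti-PD1 and -0.37 (SE 0.37) for anti-PD1 minus PBS. No p is given for sums over the segments. In bulk tissue, fewer B lineage cells and less antibody RNA per cell cannot be told apart.

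Kappa segments made up most of the V segment RNA and were ordered in a similar way. The Igkv sum was 986, 689 and 750 TPM in nanocapsule lungs, 2107, 918 and 1781 TPM in anti-PD1 lungs, and 1861, 1045 and 2127 TPM in PBS lungs. Every nanocapsule lung lay below every PBS lung, but anti-PD1 lung 2 fell inside the nanocapsule range. The means were 808 ± 157, 1602 ± 615 and 1678 ± 564 TPM (SD, n = 3 each), again for nanocapsule, anti-PD1 and PBS lungs. The log2 difference was -1.01 (SE 0.41) for nanocapsule minus PBS, -0.92 (SE 0.41) for nanocapsule minus anti-PD1 and -0.09 (SE 0.41) for anti-PD1 minus PBS. The last of these turned positive without anti-PD1 lung 2 (0.27), without PBS lung 1 (0.02) and without PBS lung 3 (0.11).

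The sums of lambda segments overlapped in all comparisons. The Iglv sum was 99.0, 57.5 and 84.0 TPM in nanocapsule lungs, 147, 74.1 and 160 TPM in anti-PD1 lungs, and 92.5, 114 and 196 TPM in PBS lungs. The log2 difference was -0.69 (SE 0.43) for nanocapsule minus PBS, -0.62 (SE 0.43) for nanocapsule minus anti-PD1 and -0.08 (SE 0.43) for anti-PD1 minus PBS. Leaving out nanocapsule lung 2, anti-PD1 lung 3 and PBS lung 3, the lungs highest in Rag1, brought the Iglv difference of nanocapsule minus PBS to -0.17. The same step gave -0.86 for Ighv and -0.70 for Igkv. These lungs were chosen after seeing the data.

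**Figure D1:**
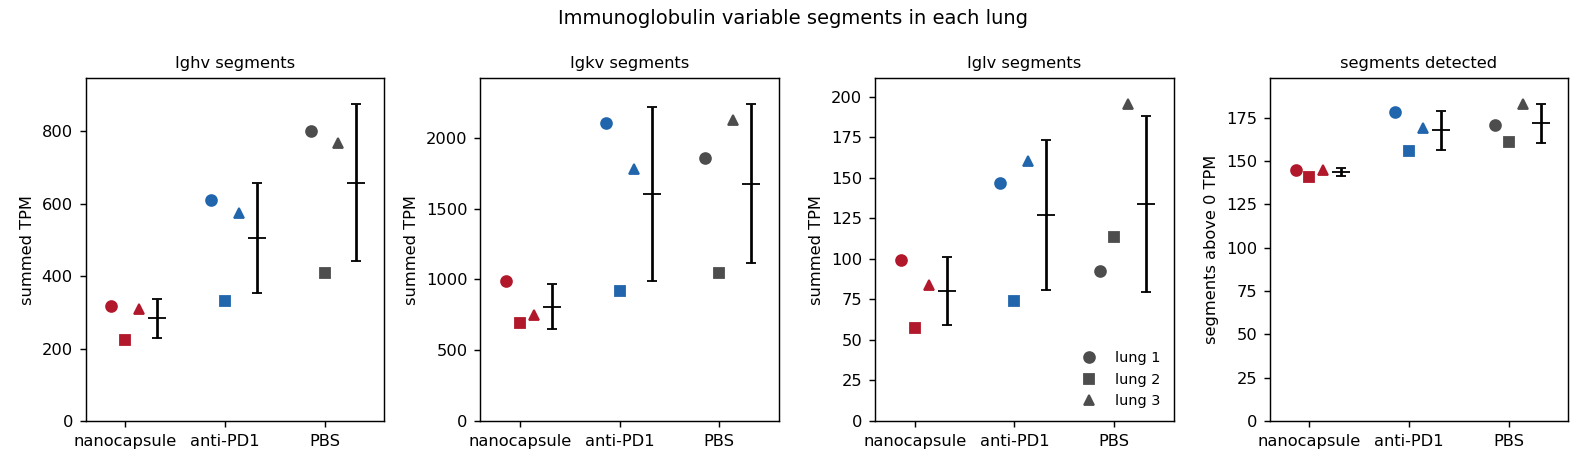
Summed TPM of heavy (Ighv), kappa (Igkv) and lambda (Iglv) V segments and the number of segments above 0 TPM, with 1 point for each lung and the mean and SD (n = 3) beside each group. The nanocapsule points lie below every PBS point for Ighv and Igkv, and the 141 to 145 segments detected in nanocapsule lungs lie below the 156 to 178 in anti-PD1 lungs and the 161 to 183 in PBS lungs.

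Fewer segments were detected in nanocapsule lungs. Segments above 0 TPM numbered 145, 141 and 145 in nanocapsule lungs, 178, 156 and 169 in anti-PD1 lungs, and 171, 161 and 183 in PBS lungs. All nanocapsule lungs were below all lungs of both other groups, and anti-PD1 and PBS lungs overlapped. With a limit of 1 TPM the numbers were 129, 123 and 123 in nanocapsule lungs, 156, 136 and 154 in anti-PD1 lungs, and 161, 144 and 158 in PBS lungs, with the same separation. Detection depends on depth, which is unknown, and on the level of the whole locus. The number of genes at 1 TPM or more in all the RNA was 12382 ± 202 in nanocapsule lungs, 13068 ± 331 in anti-PD1 lungs and 12713 ± 327 in PBS lungs (SD, n = 3 each).

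The concentration of V segment RNA in its leading segments did not separate the groups. The 10 highest segments of each lung held 26.9%, 31.2% and 28.2% of V segment TPM in nanocapsule lungs, 32.6%, 27.3% and 29.6% in anti-PD1 lungs, and 36.4%, 29.8% and 27.6% in PBS lungs. The means were 28.8 ± 2.21%, 29.9 ± 2.68% and 31.3 ± 4.60% (SD, n = 3 each) in nanocapsule, anti-PD1 and PBS lungs, so the differences were smaller than the spread within PBS lungs. PBS lung 1 had the highest share, and without it the nanocapsule minus PBS difference was 0.10 percentage points. The effective number of segments, a count in which each is weighted by its share, was 89.9, 85.2 and 91.4 in nanocapsule lungs, 82.1, 91.5 and 92.1 in anti-PD1 lungs, and 78.8, 91.6 and 98.8 in PBS lungs. The lowest values belonged to PBS lung 1 and anti-PD1 lung 1.

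Within the heavy chain locus the 10 leading segments held 48.4%, 58.4% and 50.7% in nanocapsule lungs, 52.3%, 58.2% and 49.4% in anti-PD1 lungs, and 59.8%, 54.6% and 47.3% in PBS lungs. Within the kappa locus they held 33.0%, 37.6% and 34.6% in nanocapsule lungs, 43.6%, 36.5% and 37.7% in anti-PD1 lungs, and 42.0%, 35.2% and 34.7% in PBS lungs. Heavy chain RNA was thus the more concentrated of these loci in every lung. Across all loci 26 segments were among the 10 highest of some lung. Igkv1-117, Igkv10-96 and Iglv1 were among them in all 9 lungs, Ighv2-9 and Igkv1-110 in 8, and 8 segments in 1 lung each.

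Ighv2-9 was the highest heavy segment in all 9 lungs. It stood at 35.7, 42.6 and 30.7 TPM in nanocapsule lungs, 55.7, 33.5 and 59.6 TPM in anti-PD1 lungs, and 262, 59.0 and 99.6 TPM in PBS lungs. PBS lung 1 was far above the rest. There Ighv2-9 held 32.8% of Ighv TPM, against 9.12% to 19.2% in the other 8 lungs. The nanocapsule lungs did not overlap the PBS lungs, with a log2 difference of -1.66 (SE 0.44, adjusted p = 0.363 with limma), and overlapped the anti-PD1 lungs.

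Ighv3-2, annotated as a pseudogene, was second among heavy segments by mean level. It stood at 19.2, 16.2 and 18.0 TPM in nanocapsule lungs, 34.0, 33.4 and 42.1 TPM in anti-PD1 lungs, and 50.5, 33.3 and 51.5 TPM in PBS lungs. Its values were close to each other in nanocapsule lungs, and all nanocapsule lungs lay below all others. In PBS lungs they ran from 33.3 to 51.5 TPM, with PBS lung 2 below every anti-PD1 lung. Pseudogenes together held 10.6% to 18.3% of Ighv TPM over the lungs, and 0.0727% to 0.686% of Igkv TPM. Of its 31-base words 60.5% also occur in other genes.

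The other leading heavy segments varied more from lung to lung. Ighv2-2 stood at 15.8, 11.8 and 27.8 TPM in nanocapsule lungs, 30.3, 13.7 and 32.4 TPM in anti-PD1 lungs, and 28.9, 36.0 and 35.4 TPM in PBS lungs. Ighv5-17 stood at 24.6, 4.12 and 11.05 TPM in nanocapsule lungs, 43.3, 24.3 and 24.5 TPM in anti-PD1 lungs, and 22.6, 11.5 and 22.6 TPM in PBS lungs. Ighv9-3 stood at 9.44, 7.14 and 13.6 TPM in nanocapsule lungs, 50.7, 9.85 and 20.3 TPM in anti-PD1 lungs, and 25.1, 15.3 and 35.7 TPM in PBS lungs. Nanocapsule lungs lay below PBS lungs without overlap for Ighv2-2 and Ighv9-3, and overlapped them for Ighv5-17.

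Several kappa segments shared the lead. Igkv1-117 stood at 57.7, 34.8 and 46.6 TPM in nanocapsule lungs, 123, 43.3 and 110 TPM in anti-PD1 lungs, and 99.7, 52.8 and 103 TPM in PBS lungs. Its near copy Igkv1-110 stood at 24.3, 32.4 and 33.5 TPM in nanocapsule lungs, 175, 36.1 and 99.2 TPM in anti-PD1 lungs, and 127, 60.8 and 83.2 TPM in PBS lungs. Igkv1-110 had all nanocapsule lungs below all others, at a log2 difference of -1.50 (SE 0.47) from PBS lungs, adjusted p = 0.365 with limma. For Igkv1-117 nanocapsule lung 1 was above PBS lung 2 and anti-PD1 lung 2, so the groups overlapped.

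Igkv10-96 was the steadiest in nanocapsule lungs, at 42.0, 40.8 and 40.3 TPM, against 88.7, 43.6 and 96.9 TPM in anti-PD1 lungs and 101, 47.6 and 123 TPM in PBS lungs. Igkv1-135 stood at 22.5, 27.9 and 15.4 TPM in nanocapsule lungs, 66.8, 32.3 and 65.7 TPM in anti-PD1 lungs, and 47.1, 30.98 and 70.0 TPM in PBS lungs. The V gene Igkv19-93 stood at 16.4, 26.5 and 23.9 TPM in nanocapsule lungs, 53.6, 27.9 and 49.99 TPM in anti-PD1 lungs, and 32.5, 23.7 and 91.4 TPM in PBS lungs. In the first pair the nanocapsule lungs were below all other lungs, and in Igkv19-93 they overlapped the PBS lungs. Lung 2 of the anti-PD1 and PBS groups was the lowest of its group in all 5 leading kappa segments.

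Among lambda segments Iglv1 led in every lung except nanocapsule lung 2, where Iglv2 was above it. Iglv1 stood at 61.3, 24.6 and 41.9 TPM in nanocapsule lungs, 69.1, 44.5 and 97.0 TPM in anti-PD1 lungs, and 50.1, 58.7 and 92.6 TPM in PBS lungs. Iglv2 stood at 27.5, 27.9 and 34.0 TPM in nanocapsule lungs, 60.3, 19.3 and 45.3 TPM in anti-PD1 lungs, and 32.3, 47.5 and 75.5 TPM in PBS lungs. Iglv3 stood at 10.2, 4.94 and 8.16 TPM in nanocapsule lungs, 17.5, 10.3 and 17.7 TPM in anti-PD1 lungs, and 10.1, 7.41 and 27.5 TPM in PBS lungs. Nanocapsule lungs overlapped PBS lungs in all 3, and were below all anti-PD1 lungs for Iglv3.

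**Figure D2:**
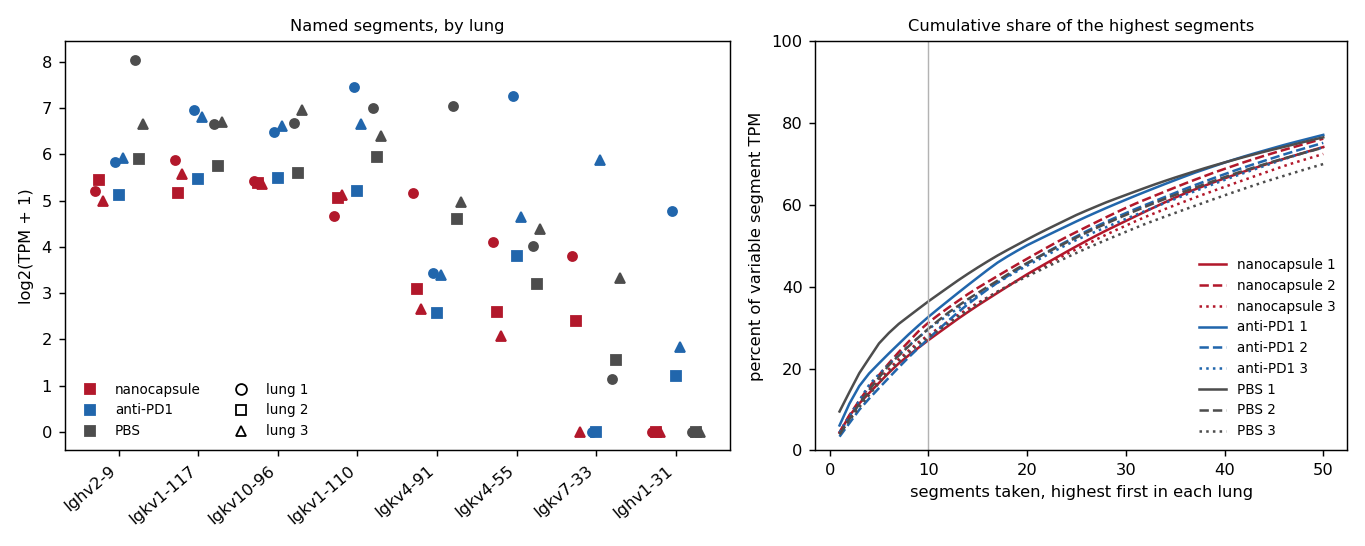
Left, log2(TPM + 1) of 8 V segments in each lung, by group (colour) and lung number (marker). Right, the percent of V segment TPM held by the highest segments of each lung as more are taken, with a line at 10. Ighv2-9 and Igkv4-91 peak in PBS lung 1, Igkv4-55 and Ighv1-31 in anti-PD1 lung 1 and Igkv7-33 in anti-PD1 lung 3, and the curves of the groups run through each other.

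Some segments were high in a single lung. Of 101 segments that reached 10 TPM in some lung, those at least 4-fold above the median of the other 8 lungs (on TPM + 1) numbered 6 in anti-PD1 lung 1, 2 in anti-PD1 lung 3, 4 in PBS lung 1 and 4 in PBS lung 3. No nanocapsule lung, and neither anti-PD1 lung 2 nor PBS lung 2, had such a segment. These lungs also had the lower V segment sums. Ighv1-31 stood at 26.5 TPM in anti-PD1 lung 1, at 1.31 and 2.58 TPM in anti-PD1 lungs 2 and 3, and was listed at 0 in the nanocapsule and PBS lungs. Igkv7-33 reached 57.5 TPM in anti-PD1 lung 3, against a median of 1.57 TPM over the other 8 lungs. It was listed at 0 in the other anti-PD1 lungs and in nanocapsule lung 3.

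Both Igkv4 segments printed above belong here. Igkv4-91 stood at 34.9, 7.47 and 5.29 TPM in nanocapsule lungs, 9.78, 4.95 and 9.55 TPM in anti-PD1 lungs, and 131, 23.3 and 30.5 TPM in PBS lungs. It was the highest kappa segment of PBS lung 1. Igkv4-55 stood at 16.1, 5.02 and 3.19 TPM in nanocapsule lungs, 153, 13.0 and 24.1 TPM in anti-PD1 lungs, and 15.1, 8.10 and 19.8 TPM in PBS lungs. The last of the 5, Igkv4-62, reached 10.4 TPM in PBS lung 1 against a median of 0 TPM elsewhere.

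Anti-PD1 lung 1 and PBS lung 1 also held most IgG constant region RNA. In these lungs the Ighg genes held 17.8% and 15.3% of heavy chain constant region TPM, against 2.30% to 6.04% in the other 7 lungs. Ighg2b, an IgG constant region, stood at 51.2 and 61.7 TPM in the same lungs, against 1.55 to 12.1 TPM elsewhere. Ighg1 did not follow in PBS lung 1, where it stood at 5.03 TPM, against 43.8 TPM in anti-PD1 lung 1 and 1.29 to 21.9 TPM in the other lungs. These are values from single lungs, and their link with the high segments was not tested.

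The levels were spread unevenly along the loci. The Ighv segments were divided by distance from the constant gene Ighm into a near set (61 segments, 154 to 881 kb), a middle set (62 segments) and a far set (62 segments, up to 2591 kb). The near set held 63.4%, 64.4% and 65.9% of Ighv TPM in nanocapsule lungs, 64.4%, 65.2% and 61.9% in anti-PD1 lungs, and 72.9%, 66.7% and 61.5% in PBS lungs. The far set held 7.21% to 16.1% over all lungs. The Igkv locus had no such slope. With 53, 53 and 54 segments by distance from Igkc, its near set held 35.1% to 48.0%, its middle set 14.5% to 19.96% and its far set 32.9% to 44.9%, so the near and far sets were at similar levels. The nanocapsule and PBS lungs overlapped in every set of both loci.

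**Figure D3:**
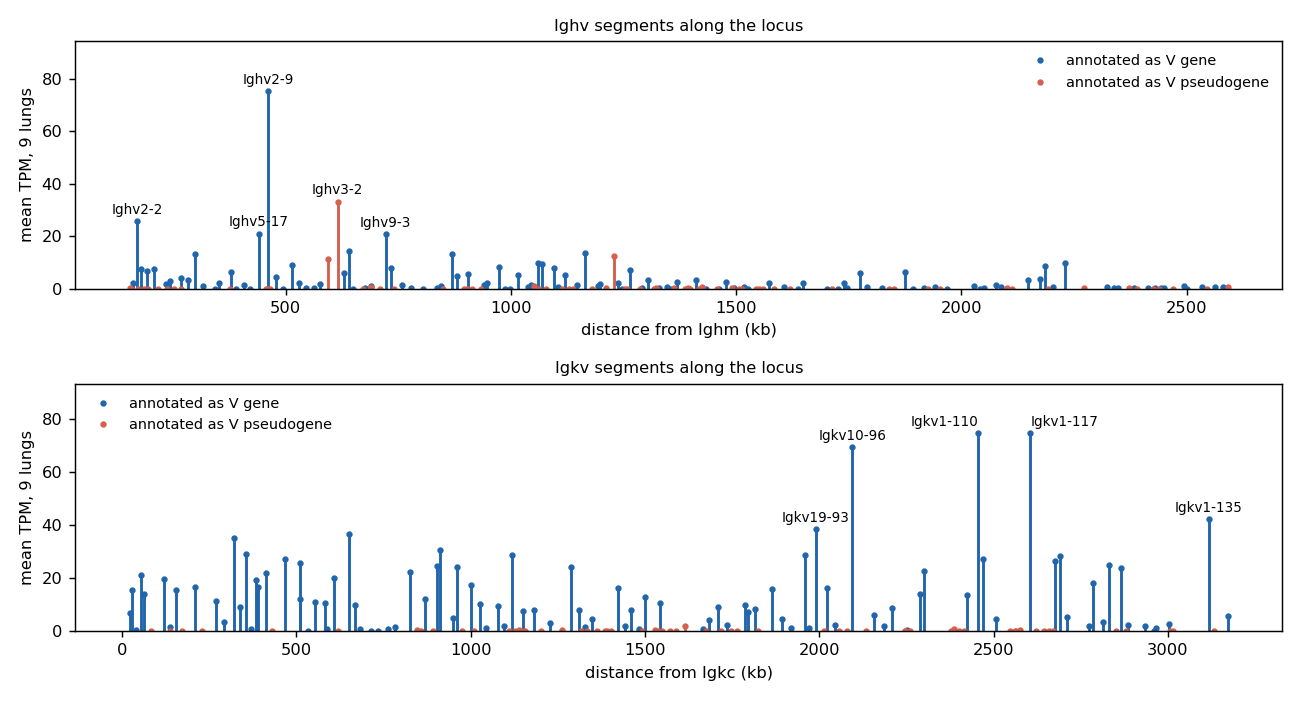
Mean TPM over the 9 lungs of each Ighv segment by its distance from Ighm (top) and of each Igkv segment by its distance from Igkc (bottom), in kb, for V genes and V pseudogenes. Leading Ighv segments lie in the set nearest Ighm, and Igkv10-96, Igkv1-110 and Igkv1-117 lie in the set farthest from Igkc.

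By family, Ighv2 had the highest mean share of the heavy locus over the 9 lungs, with 8 of its 11 segments detected. It held 24.3%, 37.7% and 25.1% of Ighv TPM in nanocapsule lungs, 22.6%, 21.8% and 22.8% in anti-PD1 lungs, and 42.0%, 29.9% and 24.0% in PBS lungs. Every anti-PD1 lung was below every nanocapsule and PBS lung in this share. The much larger Ighv1 family, with 52 of 93 segments detected, held 18.2% to 25.9%. It was above Ighv2 in anti-PD1 lungs, at 25.1%, 24.3% and 23.6%, and in PBS lung 3, at 25.9%. In the other lungs Ighv2 was above it. Ighv3 held 8.89% to 17.6% and Ighv5 held 7.25% to 14.2%. In the kappa locus Igkv1 held 12.9% to 18.7%, Igkv4 held 12.0% to 18.5% and Igkv6 held 11.2% to 15.3%. The share of Igkv8 was 11.0%, 9.92% and 10.7% in nanocapsule lungs, 8.11%, 11.2% and 9.62% in anti-PD1 lungs, and 7.06%, 7.71% and 8.38% in PBS lungs, with no overlap between nanocapsule and PBS lungs. Ighv2 and Igkv8 were not alone in separating groups. The Ighv5 share was 12.4%, 12.8% and 10.2% in anti-PD1 lungs, above 7.76%, 7.64% and 7.96% in PBS lungs. The Ighv4 share was 3.04%, 4.15% and 4.47% in anti-PD1 lungs, above 2.29%, 1.30% and 2.05% in nanocapsule lungs. Shares of 39 families were computed, none was tested, and families that separated groups were not counted.

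Segment usage differed about as much within groups as between them. Usage is the share of each segment in its locus, and the distance between 2 lungs is the percent of usage that would have to move to other segments for the lungs to match. For Ighv the median distance was 29.7% over 27 pairs from different groups and 27.9% over 9 pairs from the same group. For Igkv it was 23.4% between groups and 23.7% within groups. Spearman's rho of usage across segments, given as a description since segments are not independent, had medians of 0.73 and 0.75 for Ighv and 0.84 and 0.82 for Igkv between and within groups.

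With limma across all 13248 tested genes, no V segment differed between nanocapsule and PBS lungs at an adjusted p under 0.05. Of all tested genes 0.00755% did. By direction, 151 of 165 segments were lower in nanocapsule lungs, 13 were higher and 1 had no difference, with a median log2 difference of -0.80. Of the 13248 tested genes 9430 were lower and 3817 higher. The median over all tested genes was -0.11, and after scaling by median of ratios, which sets that median to 0.00, the median over segments was -0.73. Without adjustment, 56 segments (33.9%) were lower at p under 0.05, against 8.92% of all tested genes, and 0 were higher, against 1.22%. The count of 56 was 34 without PBS lung 3, 37 without nanocapsule lung 2 and 30 without the lungs highest in Rag1. Over all 13248 tested genes the count of 1182 fell to 633, 568 and 314 in the same settings. Without PBS lung 2 the counts rose to 76 segments and 1775 genes. Non-overlap with the nanocapsule lungs lowest was seen in 41 segments (24.8%), against 11.9% of tested genes. By locus, 59 of 69 Ighv, 89 of 93 Igkv and 3 of 3 Iglv segments were lower.

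The smallest p in this comparison belonged to Ighv3-2, which averaged 17.8 ± 1.54 TPM in nanocapsule lungs and 45.1 ± 10.2 TPM in PBS lungs (SD, n = 3 each). Its log2 difference was -1.27 (SE 0.17, adjusted p = 0.0627 with limma). Median-of-ratios scaling, and removal of the neutrophil genes S100a8 and S100a9 from the TPM total, brought its adjusted p to 0.0342 and 0.0365, and leaving out PBS lung 2 to 0.00655. It was 0.159 with no intensity trend, and 0.405, 0.292 and 0.239 without nanocapsule lung 2, PBS lung 3 and PBS lung 1, within a range of 0.00655 to 0.667 over 20 settings. S100a8 and S100a9 took 15.5% to 17.5% of TPM in nanocapsule lungs, 10.3% to 12.0% in anti-PD1 lungs and 12.1% to 16.7% in PBS lungs. The next 4 segments were of the kappa locus and did not pass, with limma adjusted p between 0.317 and 0.338. Igkv4-79 averaged 1.23 ± 0.88 and 7.09 ± 4.05 TPM, Igkv6-15 17.0 ± 2.65 and 43.8 ± 9.60 TPM, Igkv5-39 10.7 ± 2.11 and 31.9 ± 6.99 TPM, and Igkv14-126 9.56 ± 4.82 and 47.6 ± 23.6 TPM in nanocapsule and PBS lungs (SD, n = 3 each).

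Between nanocapsule and anti-PD1 lungs limma also called 0 V segments, against 0.106% of all tested genes. Here 140 of 165 segments were lower in nanocapsule lungs and 25 higher, with a median log2 difference of -0.62 over segments and -0.17 over all tested genes. By the same count 9375 of all 13248 tested genes were lower and 3873 higher. After median-of-ratios scaling the median over segments was -0.47. Without adjustment, 50 segments (30.3%) were lower at p under 0.05, against 21.0% of all tested genes, and 2 (1.21%) were higher, against 6.69%. Non-overlap with the nanocapsule lungs lowest was seen in 38 segments (23.0%), which is near the 24.6% of all tested genes. By locus, 55 of 69 Ighv, 82 of 93 Igkv and 3 of 3 Iglv segments were lower.

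Ighv3-2 again had the smallest p, at 17.8 ± 1.54 TPM in nanocapsule lungs and 36.5 ± 4.85 TPM in anti-PD1 lungs (SD, n = 3 each), which is -0.99 on the log2 scale (SE 0.17) at an adjusted p of 0.0519 with limma. Igkv6-32 stood at 19.2, 13.3 and 13.4 TPM in nanocapsule lungs and 62.4, 28.4 and 57.7 TPM in anti-PD1 lungs. The fit put it at -1.57 (SE 0.34), adjusted p = 0.0638 with limma. Igkv6-15 at -1.24 (SE 0.27), Igkv4-80 at -1.61 (SE 0.41) and Igkv12-46 at -0.996 (SE 0.26) followed, with limma adjusted p between 0.0658 and 0.0772. Both comparisons use the same nanocapsule lungs, so they are not independent of each other. The calls here rested on the spread estimate that PBS lungs share: without PBS lung 2 limma called 13 segments (7.88%), against 7.26% of all tested genes, and without PBS lung 3 it called 3 (1.82%), against 1.42%, all segments lower in nanocapsule lungs. These shares were near those of all genes.

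Between anti-PD1 and PBS lungs limma called 0 V segments, against 0.00755% of all tested genes. Segments were split, with 100 lower and 65 higher in anti-PD1 lungs, a median of -0.16 over segments and 0.04 over all tested genes. Over all tested genes 5715 were lower and 7533 higher. Without anti-PD1 lung 2 the split of segments was 65 lower and 100 higher, and without PBS lung 3 it was 73 lower and 92 higher. All tested genes then split into 4919 lower and 8329 higher, and into 5051 lower and 8194 higher. Without adjustment, 14 segments (8.48%) were lower, against 8.06% of all tested genes, and 3 (1.82%) were higher, against 8.48%. The count of 14 was 9 without PBS lung 3, 20 without PBS lung 2 and 21 without anti-PD1 lung 1, and the count of 3 was 7 without PBS lung 3 and 5 without anti-PD1 lung 2 or without anti-PD1 lung 3. Over all tested genes the lower count of 1068 became 1030, 577 and 834 in the first settings. The higher count of 1124 became 1494, 1234 and 577 in the second. Non-overlap with the anti-PD1 lungs lowest was seen in 13 segments (7.88%), against 13.4% of tested genes.

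The segments with the smallest p between anti-PD1 and PBS lungs did not pass, with limma adjusted p between 0.211 and 0.213. Igkv2-112 stood at 2.65, 0 and 0.74 TPM in anti-PD1 lungs and 8.12, 9.36 and 6.82 TPM in PBS lungs. Ighv13-2 was listed at 0 in all anti-PD1 lungs and stood at 3.11, 3.40 and 1.03 TPM in PBS lungs. Igkv4-91, given above, had a log2 difference of -2.41 (SE 0.71). Ighv1-69 went the other way, at 1.15, 1.31 and 2.40 TPM in anti-PD1 lungs and 0, 0 and 0.69 TPM in PBS lungs, as did Ighv1-31. Ighv1-31 passed the filter through anti-PD1 lungs alone, so it had to differ and its small p lends no support. Within this comparison Ighv1-69 reached 1 TPM only in anti-PD1 lungs, and Ighv13-2 only in PBS lungs. Each met the filter by the group where it was high, so the small p of these segments lends no support either.

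**Figure D4:**
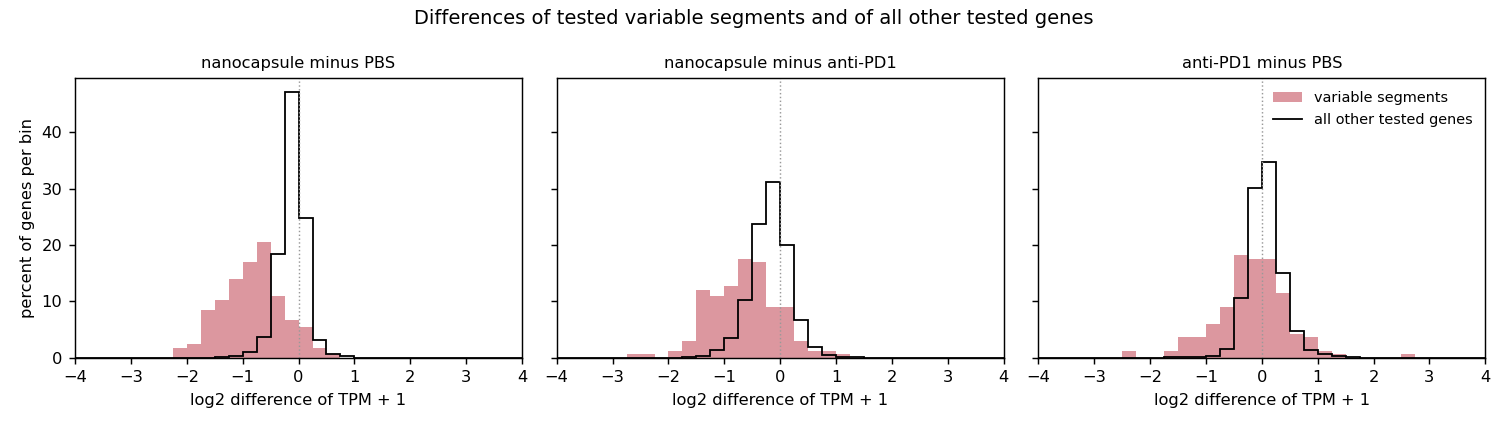
Distribution of log2 differences of TPM + 1 for the 165 tested V segments (filled) and all other tested genes (line), as percent of each set per bin, for nanocapsule minus PBS, nanocapsule minus anti-PD1 and anti-PD1 minus PBS. The V segments have medians of -0.80, -0.62 and -0.16, against -0.11, -0.17 and 0.04 over all tested genes.

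Constant region genes, whose exons follow the V segments in the same transcripts, were set beside them. All 11 tested constant region genes were lower in nanocapsule than in PBS lungs and 0 were called, 7 at an unadjusted p under 0.05, with a median log2 difference of -0.95. Igkc, the kappa constant region, stood at 665, 408 and 453 TPM in nanocapsule lungs, 1434, 772 and 1164 TPM in anti-PD1 lungs, and 1070, 658 and 1251 TPM in PBS lungs. Nanocapsule lung 1 overlapped PBS lung 2. Ighm, the constant region of IgM, stood at 233, 209 and 249 TPM in nanocapsule lungs, 400, 261 and 422 TPM in anti-PD1 lungs, and 462, 352 and 550 TPM in PBS lungs, without overlap between nanocapsule lungs and the others. Against anti-PD1 lungs all 11 were lower in nanocapsule lungs, 10 at an unadjusted p under 0.05, and anti-PD1 against PBS lungs gave 5 lower and 6 higher. Most tested genes were also lower in nanocapsule lungs, 9430 of 13248 against PBS lungs and 9375 against anti-PD1 lungs. The shares of all tested genes lower at an unadjusted p under 0.05 with limma were 8.92% and 21.0%. Between anti-PD1 and PBS lungs 5715 of all tested genes were lower and 7533 higher.

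V segment sums were then set against their constant regions. Igkv to Igkc was 1.48, 1.69 and 1.66 in nanocapsule lungs, 1.47, 1.19 and 1.53 in anti-PD1 lungs, and 1.74, 1.59 and 1.70 in PBS lungs. Ighv to the summed heavy constant genes was 0.671, 0.738 and 0.861 in nanocapsule lungs, 0.742, 0.677 and 0.727 in anti-PD1 lungs, and 1.11, 0.835 and 0.920 in PBS lungs. The kappa ratio overlapped between nanocapsule and PBS lungs, and the heavy ratio did so through nanocapsule lung 3. In both ratios every anti-PD1 lung was below every PBS lung. The lambda ratio did not follow. Iglv to the summed lambda constant genes was 0.666, 0.557 and 0.601 in nanocapsule lungs, 0.517, 0.382 and 0.662 in anti-PD1 lungs, and 0.450, 0.602 and 0.636 in PBS lungs.

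B cell markers were lower by direction in nanocapsule lungs, with no call. All 10 listed B cell genes were lower in nanocapsule than in PBS lungs and 0 were called, 9 at an unadjusted p under 0.05, with a median log2 difference of -0.93. All 10 were also lower than in anti-PD1 lungs, each at an unadjusted p under 0.05, and 0 were called. For comparison, 9430 and 9375 of 13248 tested genes were lower in nanocapsule lungs than in PBS and anti-PD1 lungs. At an unadjusted p under 0.05 with limma, 8.92% and 21.0% of all tested genes were lower in these comparisons. The summed level of the B cell genes ranged from 230 to 320 TPM in nanocapsule lungs, 400 to 693 TPM in anti-PD1 lungs and 372 to 724 TPM in PBS lungs. Cd79a, a signalling chain of the B cell receptor, stood at 100.02, 68.0 and 84.0 TPM in nanocapsule lungs, 202, 135 and 165 TPM in anti-PD1 lungs, and 151, 115 and 213 TPM in PBS lungs. V segment TPM per TPM of Cd79a was 14.0, 14.2 and 13.6 in nanocapsule lungs, 14.1, 9.81 and 15.3 in anti-PD1 lungs, and 18.2, 13.7 and 14.5 in PBS lungs, so the groups overlapped. Before division, V segment TPM summed over the loci already overlapped except between nanocapsule and PBS lungs. Per TPM of Ms4a1, another listed B cell gene, it was 70.9, 59.3 and 53.5 in nanocapsule lungs. The same ratio was 56.3, 57.4 and 76.7 in anti-PD1 lungs and 56.6, 45.8 and 54.3 in PBS lungs. The part of B cell content in the V segment differences was not tested.

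The other lists of antibody genes had no call either. Of 8 tested genes for secretion and plasma cells, 6 were lower and 2 higher in nanocapsule than in PBS lungs, with 0 called and 2 at an unadjusted p under 0.05. Mzb1, a chaperone of antibody secretion, stood at 23.1, 17.1 and 16.8 TPM in nanocapsule lungs, 49.5, 23.2 and 33.8 TPM in anti-PD1 lungs, and 45.2, 24.7 and 45.7 TPM in PBS lungs. Jchain, which joins IgM and IgA into polymers, stood at 31.8, 13.0 and 14.0 TPM in nanocapsule lungs, 78.7, 27.0 and 64.9 TPM in anti-PD1 lungs, and 39.8, 19.0 and 40.6 TPM in PBS lungs. Mzb1 did not overlap between nanocapsule and PBS lungs, and Jchain did. Of 11 tested genes for recombination and pre-B cells, 6 were lower and 5 higher, and of 6 for class switching and hypermutation 6 were lower, 0 of either list called. Among all 13248 tested genes 9430 were lower in nanocapsule than in PBS lungs. The share lower at an unadjusted p under 0.05 with limma was 8.92%.

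Lists for other cells and sites were counted in the same way, with 0 called. Against anti-PD1 lungs, all 6 lung markers (median log2 difference -0.68) and all 4 tested immature T cell genes (median -1.17) were lower in nanocapsule lungs. So were 9375 of all 13248 tested genes. Against PBS lungs 5 of the 6 lung markers were higher in nanocapsule lungs, and all 6 were higher in anti-PD1 than in PBS lungs, 5 of them at an unadjusted p under 0.05. Of all 13248 tested genes 3817 were higher in nanocapsule than in PBS lungs. In anti-PD1 lungs 7533 of them were higher than in PBS lungs, and 8.48% were higher at an unadjusted p under 0.05 with limma. The summed level of 6 lung markers ranged from 3157 to 11701 TPM in nanocapsule lungs, 4863 to 12852 TPM in anti-PD1 lungs and 3009 to 7802 TPM in PBS lungs, with all 6 markers above 0 in every lung. The lymph node and follicle list had 4 genes in the table, summing to 27.4 to 35.1 TPM in nanocapsule lungs, 39.7 to 74.2 TPM in anti-PD1 lungs and 32.7 to 70.0 TPM in PBS lungs. Its follicle chemokine Cxcl13 was above 0 in every lung, while Ccl19 was at 0 in 5 lungs. The immature T cell list summed to 28.5 to 51.8 TPM in nanocapsule lungs, 30.4 to 218 TPM in anti-PD1 lungs and 31.2 to 106 TPM in PBS lungs. The part of these cells in the V segment differences was not tested.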

How the data were processed

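The deposited gene table gives TPM, a length-corrected share of each library, as the authors made it, scaled so that each of the 9 columns has the same sum. The name of the table mentions salmon. DESeq2 and GRCm38 are named in the submitters' processing notes without a version or role. The aligner settings and annotation release are not given in the sources used here. Depth is unknown. V segments were selected by symbol, summed by locus and tested with limma 3.58.1 (R 4.3.3, intensity trend) on log2(TPM + 1), a scale that understates changes of low genes. One fit covered all 9 lungs and all genes that reached 1 TPM in 3 or more lungs, with Benjamini-Hochberg adjustment over 13248 genes and calls at an adjusted p under 0.05. The fit was tested on simulated data. Sums and shares got no p.

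Named segments were the 5 highest Ighv and Igkv segments by mean, all Iglv segments, the highest of each lung, the 5 smallest p of each comparison where fewer were called, and the 5 with the largest ratio of 1 lung to the others. The segments and gene lists were chosen with earlier results of these data known. Positions, biotypes and sequences came from GENCODE M21. It lacks 2 Igkv segments, and 6 symbols occur more than once. The main fit did not pair lungs by replicate number. Correlations of same-numbered lungs ran from -0.18 to 0.28, and those of differently numbered lungs from -0.26 to 0.22, so it is not known if the numbers pair the lungs.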

Additional observations from a re-analysis of the deposited data

How the results depend on the processing

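Over 779 recomputed values, 752 kept their side of the threshold or, for values with no test, moved by less than 1 SD. The settings were other pseudocounts, filters and scalings, no intensity trend, a replicate block, and lungs left out. Mean locus sums and detection in nanocapsule lungs stayed below those in anti-PD1 and PBS lungs with lungs left out. For sums this also held with another pseudocount, with both scalings and without each lung's highest segment. For detection it held with a limit of 1 TPM. The limit of 0.1 TPM gave the same counts as above 0 TPM in every lung, so it was no check. The replicate block leaves a difference of locus sums unchanged by construction. Its values for sums, like those at 0.1 TPM, are counted among the 752. The number of V segments called between nanocapsule and PBS lungs, 0 as reported, was 1 with median-of-ratios scaling, 1 without S100a8 and S100a9 in the total, 1 with the replicate block and 0 to 1 with each lung left out. This segment was Ighv3-2. Between nanocapsule and anti-PD1 lungs it was 1 without S100a8 and S100a9, 14 with the replicate block and 0 to 13 with each lung left out. Calls over all genes moved alike, to 79 (0.596%) in the first, 1095 (8.27%, against 8.48% of segments) in the second, and 962 (7.26%) where 13 segments were called. Between anti-PD1 and PBS lungs it was 0 throughout. It is not known if the numbers pair the lungs, and the cause of the change under the replicate block was not tested. The Iglv difference of nanocapsule minus PBS was -0.17 without nanocapsule lung 2, anti-PD1 lung 3 and PBS lung 3, chosen after seeing the data. Iglv2 between nanocapsule and anti-PD1 lungs reversed to 0.000956 without anti-PD1 lung 1, with or without PBS lung 1.

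With each lung left out, nanocapsule minus PBS ranged from -1.48 to -0.999 for Ighv, -1.32 to -0.80 for Igkv and -0.92 to -0.39 for Iglv. Nanocapsule minus anti-PD1 ranged from -1.08 to -0.64, -1.28 to -0.68 and -0.96 to -0.40 for the same loci. Anti-PD1 minus PBS ranged from -0.68 to -0.09, -0.40 to 0.27 and -0.31 to 0.27. The top 10 share difference, in percentage points, ranged from -4.31 to 0.10 for nanocapsule minus PBS, -2.34 to 0.33 for nanocapsule minus anti-PD1 and -3.25 to 1.16 for anti-PD1 minus PBS.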

Other observations

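The make-up of antibody classes differed between lungs. Igha, the constant region of IgA, held 35.9%, 17.8% and 15.0% of heavy chain constant region TPM in nanocapsule lungs, 19.4%, 27.5% and 31.1% in anti-PD1 lungs, and 12.6%, 14.3% and 13.0% in PBS lungs. Every nanocapsule and anti-PD1 lung was above every PBS lung in this share, which was not tested. The level of Igha did not follow in nanocapsule lungs, which stood at 170, 53.6 and 53.8 TPM and overlapped the PBS lungs at 90.8, 69.7 and 108 TPM. In anti-PD1 lungs it stood at 159, 134 and 246 TPM. Ighm held 49.2%, 69.4% and 69.4% in nanocapsule lungs, 48.6%, 53.4% and 53.3% in anti-PD1 lungs, and 64.2%, 72.1% and 65.9% in PBS lungs, so the anti-PD1 lungs lay below the PBS lungs without overlap. The kappa share of light chain V segment TPM was 90.9%, 92.3% and 89.9% in nanocapsule lungs, 93.5%, 92.5% and 91.8% in anti-PD1 lungs, and 95.3%, 90.2% and 91.6% in PBS lungs.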
